A study of Macaca mulatta with 11 samples.

Results

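The 42 genes described here drive or mark the division phase of the cell cycle, and their transcripts were measured in bone marrow mesenchymal stem cells cultured from rhesus monkeys of different ages. They were taken by name from a fixed list of mitosis and spindle genes, and the rule used no measured value. The list itself was chosen with earlier results of these data known. All 42 were found by gene symbol, on 71 of the 22215 probe sets of the arrays. Of those probe sets 70 carried 1 symbol, and 1 of CENPA's sets carried a second gene's symbol and was not used to read a gene. Each gene was read from its probe set of highest mean log2 intensity among sets with 1 symbol, and the same choice gave 11963 genes in the whole table.

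The study measured 11 cultures on 1 array each, with no treatment and no genetic change named for any donor. Arrays fetal 1 and fetal 2 came from donors of gestation day 120. The arrays titled fetal 3 and fetal 4 came from newborn donors. Infant arrays 1 to 4 came from donors of 6, 6, 3 and 5 months, and adult arrays 1 to 3 from donors of 7, 7 and 8 years. Marrow was flushed from long bones for the fetal and newborn donors and aspirated for the infant and adult donors, so the way of collection and the comparison of the fetal-titled group with the older groups cannot be told apart. All cultures were grown in serum-containing medium, passaged and harvested while still below confluence. The labels do not say whether each array is a separate animal, and the p-values measure the spread between these cultures. Values are log2 of the deposited intensity, a scale on which a difference of 1 is a doubling.

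Dividing cells build up cyclin B and its kinase partner CDK1, which CDC25 phosphatases switch on at entry into mitosis. Spindle motors then align the chromosomes, the checkpoint kinases hold the cell until every kinetochore is attached, and the anaphase-promoting complex with CDC20 destroys securin and cyclin B so that the sister chromatids part. Most of these transcripts accumulate in the G2 and M phases, which is why their level in a culture is widely used as a readout of proliferation. In RNA from a whole culture, fewer dividing cells and less transcript per dividing cell cannot be told apart.

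Probe set levels could not test the labelled cell type. Of 9 surface markers of mesenchymal stem cells, 8 had mean log2 intensities above 7.38, the median over all probe sets, but so did 7 of 11 markers of leukocytes and macrophages, with FCER1G at 8.55 and PTPRC at 7.75. NT5E, at 7.01, was the stem cell marker below the median. Array medians were alike, from 164.9 to 169.6 on the linear scale. The first principal component of all probe sets, with 23.05% of the variance, placed infant 1, infant 2, adult 1 and adult 2 between -20.5 and -16.1 and the other arrays between 6.70 and 19.5. The mitosis genes did not divide the arrays in this way, as the values below show. The 4 lists of markers of leukocytes, B and plasma cells, erythroid cells and endothelium had 0 called genes in each comparison below. At most 0.131% of all probe sets were called in any of them, so this count says little about other cells. Adult means were above fetal-titled means for 6 of 8 B and plasma cell markers, with differences from -0.16 (CD79A) to 1.42 (IGKC). The same held for 6 of 11 leukocyte and macrophage markers, from -0.28 (CD163) to 0.81 (FCER1G). It also held for 6 of 9 erythroid markers, 4 of 8 endothelial markers and 5995 of all 11963 genes. Summed B and plasma cell marker intensity lay between 10.74 and 10.87 (log2 of the sum) in fetal-titled arrays, between 10.55 and 10.95 in infant arrays and between 10.82 and 11.42 in adult arrays, and its part in the results was not tested.

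Across the 11 arrays a part of the mitosis genes moved together, and cultures within the fetal-titled and within the infant group spread widely. Each gene was set to its own mean over the arrays, and the deviations of the 42 genes were averaged. This mean deviation was 0.28 and 0.28 at gestation day 120, 0.30 and -0.20 in the 2 newborn cultures, -0.16, -0.06, 0.16 and -0.30 in the infant cultures and -0.06, -0.03 and -0.23 in the adult cultures. High arrays were 3 of the 4 fetal-titled ones and infant 3, and low arrays were fetal 4, infant 4 and adult 3. The newborn cultures alone spanned most of the range of the series. By group the mean deviation averaged 0.17 ± 0.24 in fetal-titled (SD, n = 4), -0.09 ± 0.19 in infant (n = 4) and -0.10 ± 0.11 in adult arrays (n = 3), and all 3 groups overlapped.

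**Figure D1:**
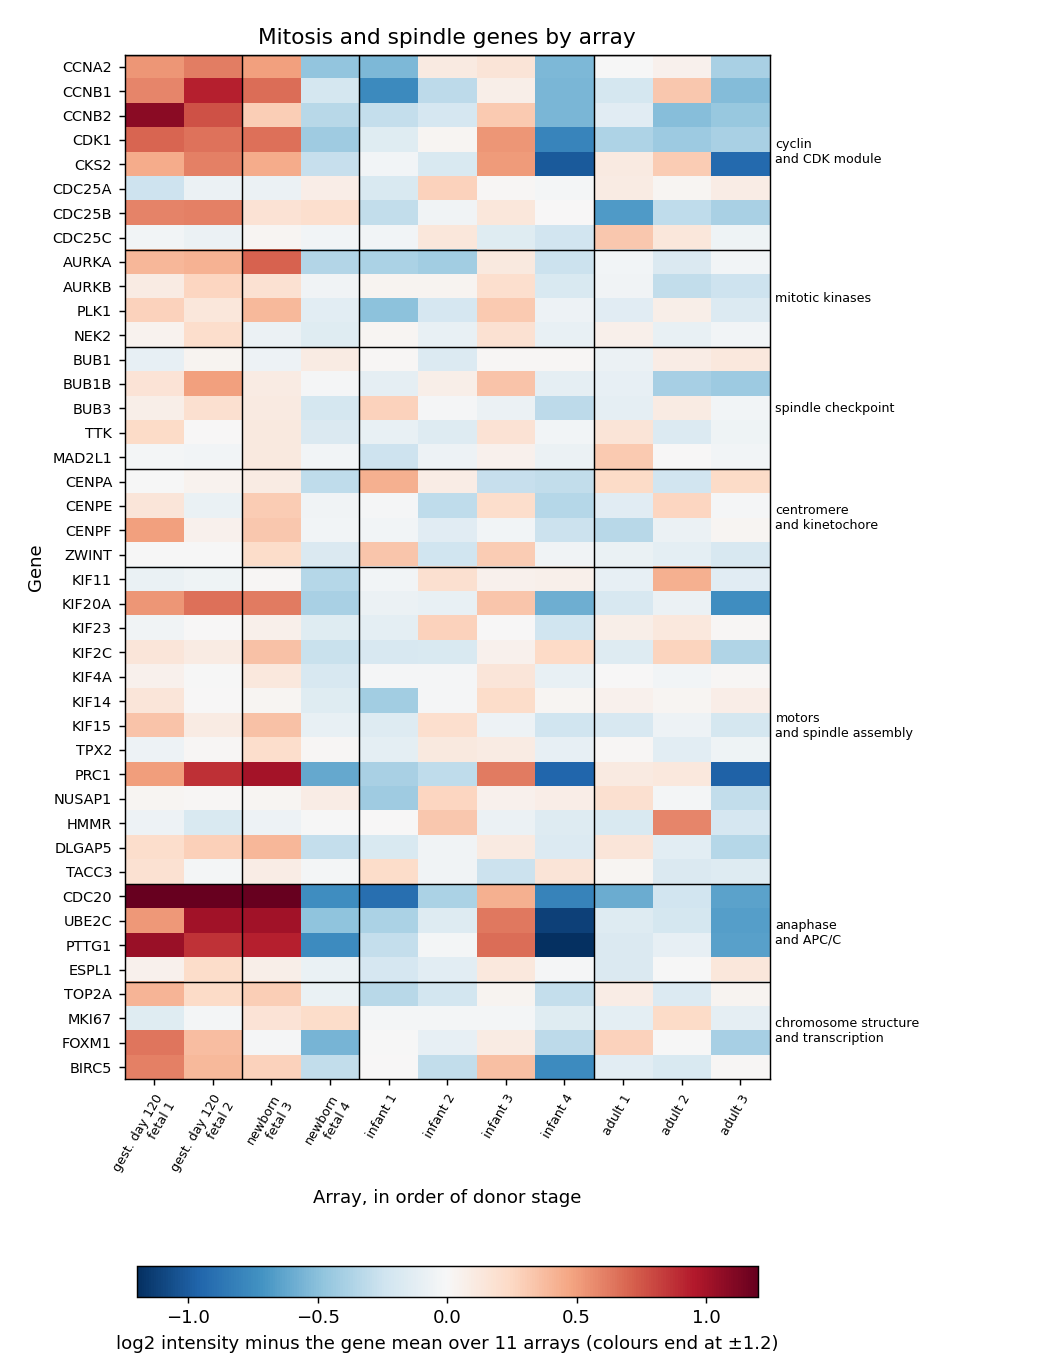
Log2 intensity of each of the 42 genes (rows, in 7 role classes) in each of the 11 arrays (columns, by donor stage), minus the gene's mean over the arrays; red is above and blue below that mean. Most cyclin and anaphase rows are red in fetal 1 to 3 and infant 3 and blue in fetal 4, infant 4 and adult 3.

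Genes were also counted on each array. On fetal 1, fetal 2 and fetal 3 there were 32, 28 and 35 of the 42 genes above their own median over the arrays, against 6 on fetal 4. Infant 3 had 29 such genes, and the other infant arrays had 7, 13 and 4. The adult arrays had 15, 17 and 11. By this count infant 4, fetal 4 and infant 1 were lowest, below adult 3. Infant 4 held the lowest value of 12 genes and the highest of 0.

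The distance between the highest and the lowest array had a median of 0.74 over the 42 genes, against 0.60 over all genes. It exceeded 1 on the log2 scale for 14 of the 42 genes (33.3%), compared with 9.91% of all 11963 genes. Among genes brighter than the median probe set it did so for 14 of 30 members (46.7%) and for 15.6% of such genes. The 12 dimmer members had ranges from 0.33 to 0.93. No detection call was used, and a dim probe set can be dim because a human probe matches the monkey sequence poorly.

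**Figure D2:**
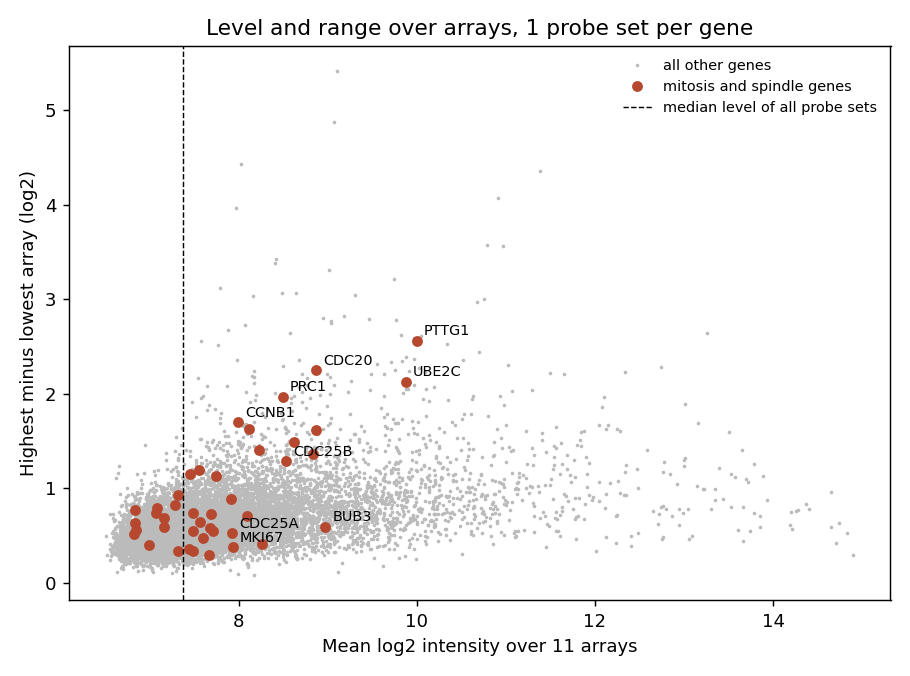
Mean log2 intensity over 11 arrays (horizontal) against the highest minus the lowest array (vertical, log2) for 42 mitosis and spindle genes (red) and all other genes (grey), 1 probe set each; the dashed line is the median level of all probe sets. PTTG1, CDC20, UBE2C and PRC1 have the largest ranges of the 42, from 1.97 to 2.56, while the probe sets read for MKI67 and CDC25A stay at 0.38 and 0.52.

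Between adult and fetal-titled cultures 1 of the 42 genes passed limma's test at an adjusted p under 0.05, where 0.131% of all probe sets did so (0.184% of genes). That gene was CDC25B. Lower means in adult cultures were found for 32 of the 42 genes (76.2%), against 49.9% of all genes, and the median difference was -0.16, against 0.00034 over all genes. At an unadjusted p under 0.05 there were 11 genes lower (26.2%) and 0 higher in adult cultures, against 5.79% and 4.13% of all genes. The groups did not overlap for 2 of the genes, CDC25B and BUB1B, both lower in adult cultures, which is 4.76% of the members and close to the 4.23% of all genes. No p-value is given for the 42 genes as a set, because they were chosen with earlier results of these data known. The shares set beside all genes carry the same limit.

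Between adult and infant cultures 0 of the 42 passed the test, with 0.018% of all probe sets called. At an unadjusted p under 0.05, 2 members were lower and 0 higher in adult cultures, against 2.58% and 4.0% of all genes. Means were higher in adult cultures for 23 genes and lower for 19 (45.3% of all genes), with a median difference of 0.0066, against 0.017 over all genes. CDC25B was the 1 member whose adult and infant arrays did not overlap, where 1.85% of all genes were lower in the same way. Between infant and fetal-titled cultures 0 of the 42 passed, and 0.0% of all probe sets did. There 35 genes had lower means in infant cultures (83.3%, against 54.6% of all genes), with a median difference of -0.13 compared with -0.016 over all genes. At an unadjusted p under 0.05, 8 members were lower in infant cultures (5.37% of all genes) and 0 higher (2.23%). CDC25B was the 1 member whose infant and fetal-titled arrays did not overlap (2.32% of all genes). The adult and infant comparisons with the fetal-titled arrays share those arrays, so they are not independent.

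**Figure D3:**
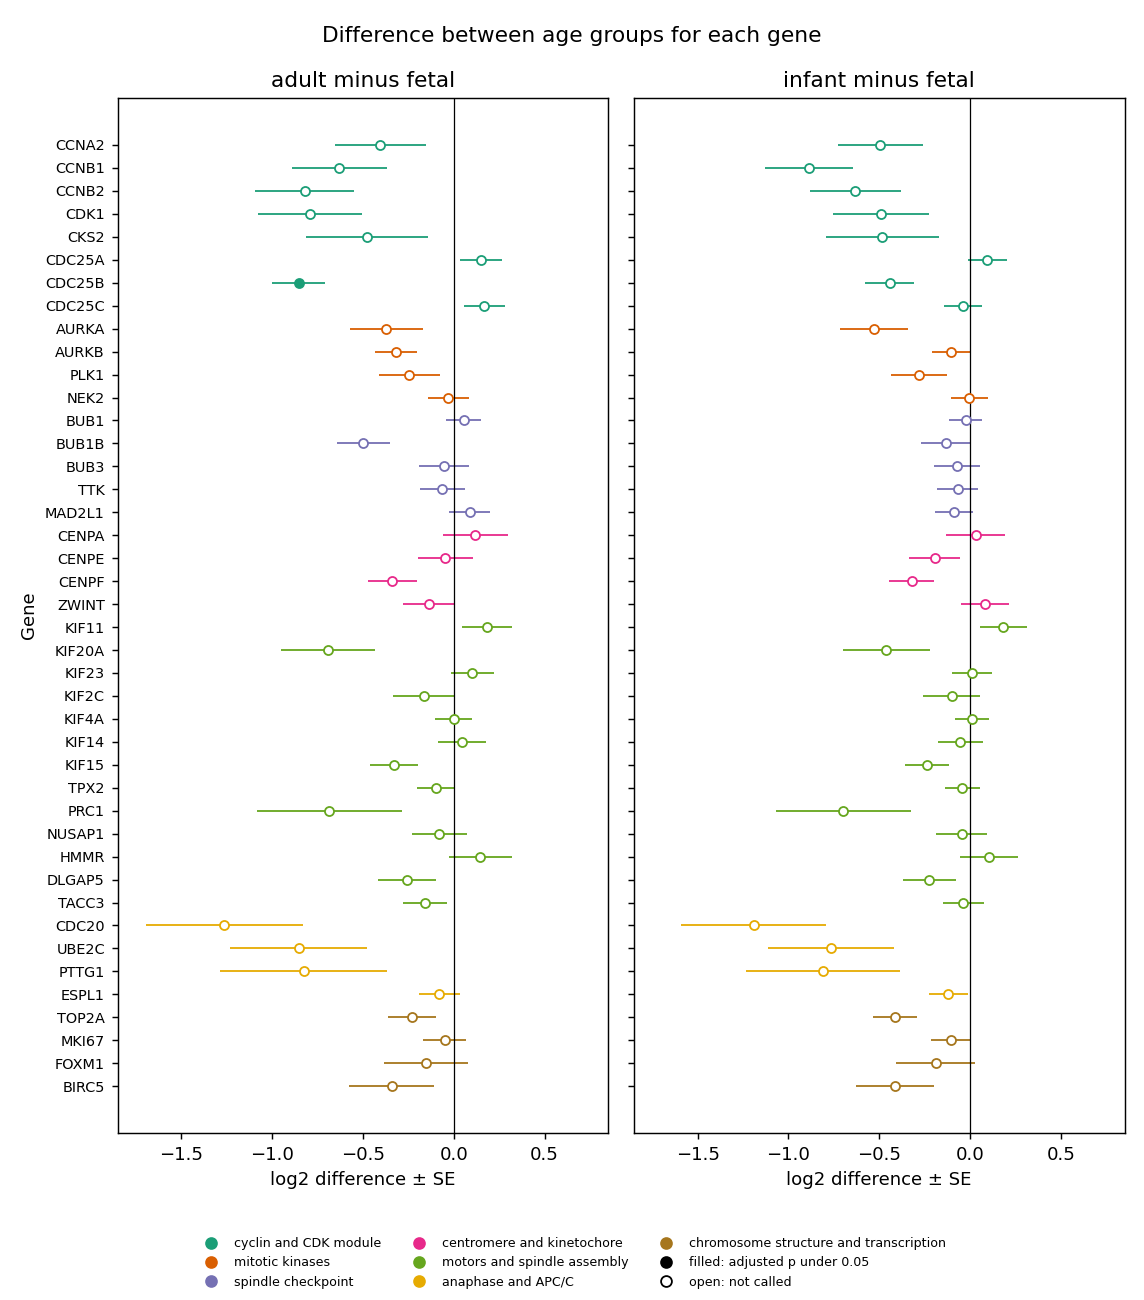
Difference in mean log2 intensity ± SE for each of the 42 genes, adult minus fetal-titled arrays (left, n = 3 and 4) and infant minus fetal-titled arrays (right, n = 4 each), with a filled point where limma's adjusted p was under 0.05. CDC25B between adult and fetal-titled arrays, at -0.85, is the filled point, and CDC20 has the largest difference, -1.26, with an SE of 0.43.

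Of the 8 cyclin and CDK genes, 6 had lower means in adult than in fetal-titled cultures, with a median difference of -0.55, and 1 passed the test. CDC25B encodes a phosphatase that removes the inhibitory phosphates from CDK1 and so helps trigger entry into mitosis. Its single probe set read 9.12 and 9.14 at gestation day 120, 8.70 and 8.73 in newborn, 8.23, 8.49, 8.67 and 8.54 in infant and 7.85, 8.22 and 8.14 in adult cultures. Every later stage lay below the stage before it, with no overlap between neighbouring stages. Some gaps were small, with adult 2 at 8.223 below infant 1 at 8.235 and infant 3 at 8.666 below fetal 3 at 8.703. This ordering, looked for after the values were seen, was met by 1 of the 42 members and by 0.0167% of all genes, 2 of 11963.

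CDC25B averaged 8.07 ± 0.20 in adult cultures (SD, n = 3) and 8.92 ± 0.24 in fetal-titled cultures (n = 4), a log2 difference of -0.85 (SE 0.15, limma adjusted p = 0.0389), or 1.8-fold lower. Infant cultures averaged 8.48 ± 0.18 (n = 4). The differences that involve the infant group did not pass the test. They were -0.41 for adult minus infant (adjusted p = 0.68) and -0.44 for infant minus fetal-titled cultures (adjusted p = 0.546). In neither pair did the groups overlap, and 1.85% and 2.32% of all genes were lower without overlap in these pairs. With 11 arrays the call was close to its threshold. Leaving out fetal 1, fetal 2, fetal 3, infant 2, adult 1 or adult 2 raised the adjusted p to between 0.0644 and 0.18, while the log2 difference stayed between -0.93 and -0.74 over all 11 omissions.

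**Figure D4:**
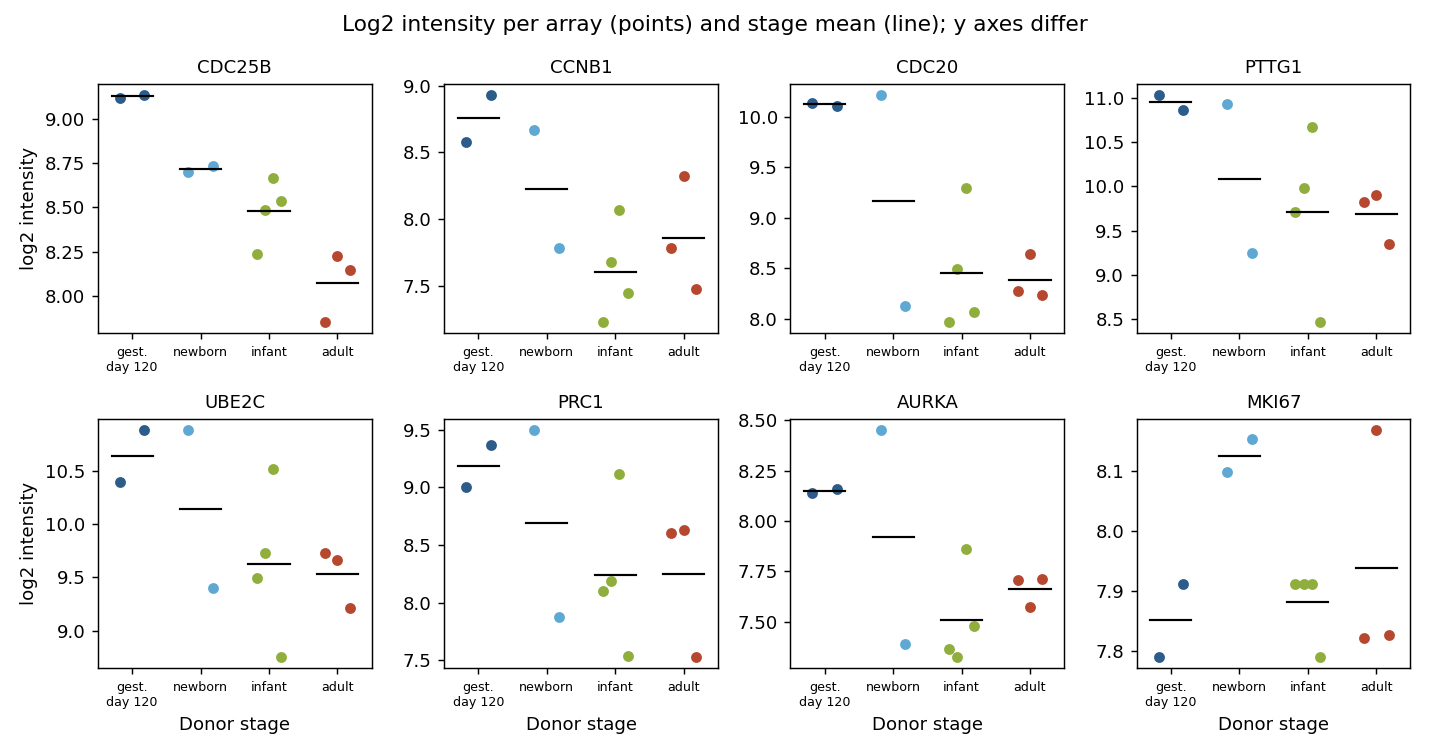
Log2 intensity of 8 genes in each array (points) by donor stage, with the stage mean as a line and a separate vertical scale for each gene. CDC25B steps down through the stages without overlap, the 5 other cyclin, anaphase and midzone genes and AURKA show 1 newborn array far below the other, and the probe set read for MKI67 spans 0.38.

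The B-type cyclins and CDK1 form the kinase that drives entry into mitosis. CCNB1 read 8.58 and 8.93 at gestation day 120, 8.67 and 7.79 in newborn, 7.23, 7.68, 8.07 and 7.45 in infant and 7.78, 8.32 and 7.48 in adult cultures. Fetal 1, fetal 2 and fetal 3 lay above all infant and adult arrays, and fetal 4 lay among them. CCNB1 averaged 7.61 ± 0.36 in infant and 8.49 ± 0.49 in fetal-titled cultures, a difference of -0.89 (SE 0.24, adjusted p = 0.497), and 7.86 ± 0.43 in adult cultures (adult minus fetal-titled -0.63, SE 0.26, adjusted p = 0.487).

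CCNB2, the second B-type cyclin, read 9.20 and 8.88 at gestation day 120, 8.41 and 7.78 in newborn, 7.83, 7.91, 8.42 and 7.57 in infant and 7.97, 7.61 and 7.66 in adult cultures. Both arrays of gestation day 120 lay above the other arrays, and the rest overlapped. The adult mean was 7.75 ± 0.20 and the fetal-titled mean 8.57 ± 0.62, a difference of -0.82 (SE 0.27, adjusted p = 0.339). CDK1, which was added after its values were seen, read 9.32 and 9.28 at gestation day 120, 9.28 and 8.20 in newborn, 8.48, 8.65, 9.16 and 7.83 in infant and 8.25, 8.19 and 8.24 in adult cultures. The adult cultures lay close together, next to fetal 4. CDK1 averaged 8.23 ± 0.03 in adult and 9.02 ± 0.55 in fetal-titled cultures, a difference of -0.79 (SE 0.29, adjusted p = 0.402). Its brightest probe set has the suffix that marks probes shared with other transcripts, and its other sets differed by -0.41 and -0.05. The sets read for PTTG1, FOXM1 and CENPA have the same suffix.

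CCNA2, the cyclin of S phase and G2, averaged 7.34 ± 0.24 in adult and 7.75 ± 0.51 in fetal-titled cultures (adjusted p = 0.694). CKS2, a small subunit that binds CDK1, averaged 8.70 ± 0.67 in adult and 9.18 ± 0.40 in fetal-titled cultures (adjusted p = 0.741). Its lowest arrays were infant 4 at 7.86 and adult 3 at 7.94. Of the other CDC25 phosphatases, CDC25C averaged 7.63 ± 0.19 in adult and 7.46 ± 0.04 in fetal-titled cultures (adjusted p = 0.722). CDC25A depended on the probe set. Its brighter set averaged 8.00 ± 0.04 in adult and 7.85 ± 0.13 in fetal-titled cultures, a difference of 0.15 (adjusted p = 0.77), and its other set differed by -0.46 (adjusted p = 0.51), with means of 8.18 at gestation day 120, 7.80 in newborn, 7.72 in infant and 7.53 in adult cultures. The direction of CDC25A therefore depends on the set read.

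All 4 anaphase genes had lower means in adult than in fetal-titled cultures, with a median difference of -0.84 and 0 called, and 3 of them had the widest ranges of the 42 genes. CDC20, the activator that turns the anaphase-promoting complex on its targets, read 10.14 and 10.11 at gestation day 120, 10.22 and 8.12 in newborn, 7.97, 8.49, 9.30 and 8.07 in infant and 8.28, 8.64 and 8.23 in adult cultures. Fetal 1 to 3 lay above every other array, and fetal 4 lay below all adult arrays. CDC20 averaged 8.38 ± 0.22 in adult and 9.65 ± 1.02 in fetal-titled cultures, a difference of -1.26 (SE 0.43, adjusted p = 0.358), and 8.46 ± 0.61 in infant cultures (infant minus fetal-titled -1.19, SE 0.40, adjusted p = 0.615). Neither difference passed the test with fetal 4 in the group. Without fetal 4 they were -1.77 (adjusted p = 0.0123) and -1.70 (adjusted p = 0.0236), and both then passed. Fetal 4 held the lowest CDC20 value of its group, so leaving it out was bound to enlarge both differences. These p-values are therefore no separate evidence for a difference between the groups. Leaving out that array raised the count of called member probe sets between adult and fetal-titled cultures to 4, which were those of CDC25B, CDC20, CCNB2 and the second set of CCNA2. The share of all probe sets called without fetal 4 is not given here, so the rise cannot be read as particular to the members.

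PTTG1 encodes securin, the inhibitor of separase that the complex destroys. It read 11.03 and 10.86 at gestation day 120, 10.93 and 9.24 in newborn, 9.71, 9.98, 10.67 and 8.47 in infant and 9.83, 9.90 and 9.35 in adult cultures. Within the infant group alone it ran from 8.47 to 10.67. PTTG1 averaged 9.69 ± 0.30 in adult and 10.52 ± 0.85 in fetal-titled cultures, a difference of -0.82 (SE 0.46, adjusted p = 0.647). The human genome holds near-identical copies of PTTG1, so its probe set may read more than 1 transcript. UBE2C, the ubiquitin-conjugating enzyme of the complex, read 10.39 and 10.88 at gestation day 120, 10.88 and 9.40 in newborn, 9.50, 9.72, 10.51 and 8.75 in infant and 9.72, 9.66 and 9.21 in adult cultures. Fetal 1 to 3 and infant 3 were high and infant 4 was lowest, as for PTTG1, with an adult minus fetal-titled difference of -0.85 (SE 0.37, adjusted p = 0.514). UBE2C too was added after its values were seen. ESPL1, separase itself, had a range of only 0.42.

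Among the mitotic kinases, AURKA, which matures the spindle poles, read 8.14 and 8.16 at gestation day 120, 8.45 and 7.39 in newborn, 7.36, 7.32, 7.86 and 7.48 in infant and 7.71, 7.57 and 7.71 in adult cultures. Fetal 4 lay among the infant arrays, and the other fetal-titled arrays lay above all later ones. AURKA averaged 7.51 ± 0.24 in infant and 8.03 ± 0.45 in fetal-titled cultures, a difference of -0.53 (SE 0.19, adjusted p = 0.616). AURKB, the kinase that corrects faulty chromosome attachments, averaged 7.52 ± 0.13 in adult and 7.84 ± 0.13 in fetal-titled cultures, a difference of -0.32 (SE 0.12, adjusted p = 0.403). PLK1, a kinase with roles from mitotic entry to cytokinesis, averaged 7.84 ± 0.13 in adult and 8.08 ± 0.22 in fetal-titled cultures (adjusted p = 0.732). All 4 kinases, NEK2 at -0.03 included, had lower means in adult than in fetal-titled cultures on the probe sets read, with a median difference of -0.28 and 0 called. The other AURKA sets differed by 0.14 and -0.22, and the median of its 3 sets by 0.0035, so its direction depends on the set.

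Of the 5 spindle checkpoint genes, 3 had lower means in adult than in fetal-titled cultures on the probe sets read, with a median difference of -0.05 and 0 called. BUB1B was the one whose adult and fetal-titled arrays did not overlap. BUB1B encodes BUBR1, part of the complex that restrains CDC20. It read 7.49 and 7.81 at gestation day 120, 7.42 and 7.31 in newborn, 7.22, 7.40, 7.67 and 7.21 in infant and 7.22, 6.93 and 6.88 in adult cultures. The adult mean was 7.01 ± 0.18 and the fetal-titled mean 7.51 ± 0.22, a difference of -0.50 (SE 0.15, adjusted p = 0.259), which did not pass the test. Its mean level is below the median probe set. MAD2L1, which binds CDC20 in the same complex, averaged 6.95 ± 0.19 in adult and 6.86 ± 0.07 in fetal-titled cultures (adjusted p = 0.877). BUB3, a further subunit, averaged 8.96 ± 0.10 and 9.01 ± 0.17 in adult and fetal-titled cultures (adjusted p = 0.953). Other probe sets of BUB3 spanned 1.54 and 1.33 over the arrays, where the set read here spanned 0.60. Those sets correlated at 0.83 and 0.69 with the mean of the other members over the arrays. The set read here was at 0.50 and the remaining set at -0.05.

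TTK, the kinase that recruits checkpoint proteins to kinetochores, differed by -0.06. BUB1, a checkpoint kinase described after its values were seen, had probe sets that disagreed. The brightest of its 5 sets ranged over 0.29 and correlated at -0.40 with the mean of the other members over 11 arrays. The second brightest read 7.89 and 8.11 at gestation day 120, 7.87 and 6.75 in newborn, 7.41, 7.26, 7.26 and 6.83 in infant and 6.84, 7.62 and 6.82 in adult cultures. That set followed the other members, at a correlation of 0.85, and had fetal 1 to 3 on top and fetal 4, infant 4, adult 1 and adult 3 at the bottom. Its adult minus fetal-titled difference was -0.56 (adjusted p = 0.60).

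Of the 4 centromere and kinetochore genes, 3 had lower means in adult than in fetal-titled cultures, with a median difference of -0.09 and 0 called. CENPF, a large kinetochore protein of G2 and M, averaged 7.16 ± 0.18 in adult and 7.50 ± 0.24 in fetal-titled cultures, a difference of -0.34 (SE 0.14, adjusted p = 0.465), and its other sets differed by 0.04 and 0.09. CENPA, the histone H3 variant that marks centromeres, averaged 7.77 ± 0.26 in adult and 7.65 ± 0.18 in fetal-titled cultures (adjusted p = 0.898). CENPE, the kinetochore motor, averaged 7.60 ± 0.20 in adult and 7.65 ± 0.18 in fetal-titled cultures (adjusted p = 0.964). ZWINT, a kinetochore scaffold, averaged 7.55 ± 0.06 in adult and 7.77 ± 0.28 in infant cultures (adjusted p = 0.853). None of the 4 had groups without overlap in the comparisons by title.

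Motors and spindle assembly factors were the most numerous class, with 13 genes, of which 5 were brighter than the median probe set. Lower means in adult than in fetal-titled cultures were found for 8 of the 13, with a median difference of -0.10 and 0 called. PRC1, which bundles microtubules in the spindle midzone, had the widest range among them. It read 9.00 and 9.37 at gestation day 120, 9.50 and 7.88 in newborn, 8.10, 8.19, 9.12 and 7.54 in infant and 8.60, 8.63 and 7.53 in adult cultures. In each age group of the titles 1 array lay far below another. Its adult minus fetal-titled difference was -0.68 (SE 0.40, adjusted p = 0.663). KIF20A, a midzone kinesin added after its values were seen, averaged 7.89 ± 0.36 in adult and 8.59 ± 0.50 in fetal-titled cultures, a difference of -0.69 (SE 0.26, adjusted p = 0.415).

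The other 5 had higher means in adult cultures, by at most 0.18. KIF11, the motor that pushes the spindle poles apart, averaged 6.91 ± 0.32 in adult and 6.73 ± 0.16 in fetal-titled cultures (adjusted p = 0.764). KIF23, a motor of the central spindle, averaged 6.89 ± 0.06 and 6.79 ± 0.09 in adult and fetal-titled cultures (adjusted p = 0.861). HMMR, a hyaluronan receptor that also binds spindle microtubules, averaged 7.15 ± 0.45 in adult and 7.01 ± 0.07 in fetal-titled cultures (adjusted p = 0.866), with adult 2 at 7.67 well above the rest. TPX2, the activator of AURKA on the spindle, ranged over only 0.33. The kinesins KIF2C, KIF4A, KIF14 and KIF15 and the spindle proteins NUSAP1, DLGAP5 and TACC3, given to account for every member, differed by -0.33 to 0.04 between adult and fetal-titled cultures, with 0 called.

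All 4 chromosome structure and transcription genes had lower means in adult than in fetal-titled cultures, with a median difference of -0.19 and 0 called. TOP2A, the topoisomerase that untangles sister chromatids, read 7.90 and 7.71 at gestation day 120, 7.79 and 7.41 in newborn, 7.16, 7.27, 7.52 and 7.21 in infant and 7.58, 7.32 and 7.52 in adult cultures. The infant arrays were lowest as a group, and infant 3 reached above fetal 4. TOP2A averaged 7.29 ± 0.16 in infant and 7.70 ± 0.21 in fetal-titled cultures, a difference of -0.41 (SE 0.12, adjusted p = 0.535). FOXM1, the transcription factor that switches on many G2 and M genes, read 8.20 and 7.93 at gestation day 120, 7.55 and 7.00 in newborn, 7.55, 7.46, 7.66 and 7.24 in infant and 7.84, 7.56 and 7.16 in adult cultures. Only its gestation day 120 arrays stood above the rest, and its adult mean of 7.52 ± 0.34 was close to the fetal-titled mean of 7.67 ± 0.52 (adjusted p = 0.903). BIRC5, the survivin subunit of the chromosomal passenger complex, averaged 8.74 ± 0.10 in adult and 9.08 ± 0.39 in fetal-titled cultures (adjusted p = 0.727), with infant 4 lowest at 8.08.

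MKI67 is the source of the Ki-67 proliferation antigen, and the probe set read for it did not follow the other genes. That set read 7.79 and 7.91 at gestation day 120, 8.10 and 8.15 in newborn, 7.91, 7.91, 7.91 and 7.79 in infant and 7.82, 8.17 and 7.83 in adult cultures. Fetal 2 and infant 1 to 3 held the same value. Fetal 4, on which most cyclin and anaphase genes were low, held the second highest MKI67 value. The correlation of its 4 probe sets with the mean of the other members was 0.08, 0.50, -0.25 and 0.13. The set at 0.50 spanned 1.06 over the arrays, with an adult minus fetal-titled difference of -0.25 (adjusted p = 0.819). For the set read here that difference was -0.05 (SE 0.12, adjusted p = 0.948).

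Within the fetal-titled group the newborn cultures were also compared with those of gestation day 120, 2 arrays each. No member passed the test, no probe set of the array did (0.0%), and every adjusted p was 1. Means were lower in newborn cultures for 32 members, against 51.5% of all genes. At an unadjusted p under 0.05, 3 members were lower and 0 higher in newborn cultures, against 1.09% and 0.986% of all genes. Those 3 were CCNB2, with a newborn minus gestation day 120 difference of -0.94 (SE 0.26), FOXM1 at -0.79 (SE 0.23) and CDC25B at -0.41 (SE 0.16). Both newborn arrays lay below both arrays of gestation day 120 for 7 members (16.7%, close to 15.2% of all genes), and MKI67 was the 1 member with both above (13.5% of all genes). The median member difference was -0.14, against -0.0053 over all genes, and was 0.037 without fetal 4. The F test over the 3 titled groups called 0 members, with 0.036% of all probe sets called; 11 members had an unadjusted p under 0.05 (8.01% of all probe sets), and the lowest adjusted p was 0.0894.

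How closely the members followed each other was described by correlating each gene with the mean deviation of the rest of the set over the 11 arrays. The correlation was above 0.8 for 13 of the 42 genes and above 0.5 for 27. The closest were UBE2C (0.97), PTTG1, KIF20A and PRC1 (0.96 each) and CDC20 and CCNA2 (0.95 each). CDC25B stood lower, at 0.60, and on fetal 4 it was above its own mean of 8.53. The correlation was at or below 0 for 5 genes, namely BUB1, CDC25A, HMMR, TACC3 and CENPA. Of these, BUB1, CDC25A and HMMR have another probe set at 0.85, 0.77 and 0.40. The CENPA set that carries a second gene's symbol was at 0.50. The median correlation between 2 members was 0.34, against 0.0046 between 2 of all genes. After the group means were removed it was 0.35, against 0.0038. These correlations share the arrays, the normalisation and the gene means, and carry no p-value.

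Outside the set, the 5 genes whose pattern over the 11 arrays was most like the mean of the members were H2AX (Pearson's r 0.98), RRM2 (0.97), MCM5 (0.96), GINS1 (0.95) and MCM6 (0.95). RRM2 is a subunit of ribonucleotide reductase, the MCM genes encode parts of the replicative helicase, GINS1 belongs to the complex that activates it, and H2AX is a histone variant phosphorylated at DNA breaks. RRM2 read 10.64 and 11.33 at gestation day 120, 11.14 and 8.96 in newborn, 9.69, 9.82, 10.51 and 8.74 in infant and 9.72, 9.76 and 9.33 in adult cultures. Fetal 1 to 3 and infant 3 were high, and fetal 4 and infant 4 were lowest.

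Other lists of cell-cycle genes were placed beside the members. The DNA replication list had 38 of its 40 genes measured, 32 of them with lower means in adult than in fetal-titled cultures, a median difference of -0.21 and 0 called. A further 49 of 57 listed mitosis genes had 36 lower means, a median difference of -0.14 and 0 called. The mean deviation of these lists tracked that of the members over the 11 arrays at a Pearson's r of 0.99 (Spearman's rho 0.94) for replication and 0.97 (0.93) for the other mitosis genes, and at 0.98 and 0.96 when the 2 arrays farthest from the median were left out. Within groups, r was 0.99 and 0.96.

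The regulators of G1 behaved less alike. The 18 G1 cyclins, CDKs and E2F factors had 11 lower means in adult than in fetal-titled cultures, 0 called and r = 0.80 (rho 0.85) with the members. The list of CDK inhibitors and pocket proteins also held WEE1, PKMYT1, GADD45A, GADD45B, CCNG1 and CCNG2. Its 15 measured genes of 16 had 13 lower means, a median difference of -0.06, 0 called and r = 0.17 (rho -0.03). On fetal 4 the mean deviation of this list was 0.09, the highest of any array, while that of the mitosis genes was -0.20. On infant 1 both were low, at -0.19 and -0.16. The 8 measured APC/C core subunits, which lack CDC20 and UBE2C, had 6 lower means, r = 0.52 and 0 called. The 10 cohesin genes had 9 lower means, a median difference of -0.10, r = 0.61 and 0 called. The shares of lower means in the cohesin list (90%) and the CDK inhibitor list (86.7%) were above the 76.2% of the members. A high share of lower means in adult cultures was therefore not particular to the mitosis genes. Marker lists for mesenchymal stem cells, leukocytes, B and plasma cells and endothelium had r between -0.12 and 0.0041, and the erythroid list -0.48. Their part in the members' pattern was not tested.

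**Figure D5:**
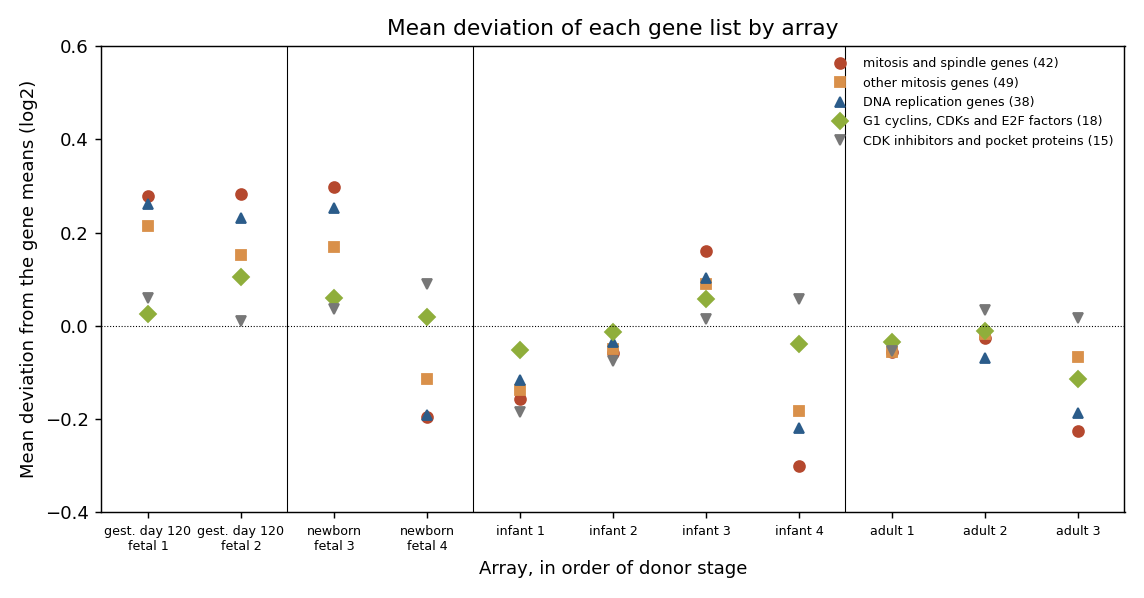
Mean deviation of the genes of each list from their own means (log2, vertical) in each of the 11 arrays by donor stage, with the number of genes in the legend. Mitosis, other mitosis and DNA replication genes move together, at about 0.15 to 0.30 in fetal 1 to 3 and below -0.1 in fetal 4 and infant 4, while CDK inhibitors and pocket proteins stay between -0.19 and 0.09.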

How the data were processed

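Log2 of the deposited intensities was analysed. The authors made each deposited intensity with RMA (version not given), per the submitters' processing notes. RMA removes background, puts the arrays on one distribution and combines the probes of a set; the values were linear (lowest 75.3). Gene symbols came from the platform's human probe annotation, so the level of a probe set, above or below the median of all sets, describes signal and not abundance. Limma 3.58.1 in R 4.3.3 (lmFit, eBayes) fitted 1 mean per titled group over 11 arrays and 22215 probe sets, and 1 mean per stage for newborn minus gestation day 120. Differences are older minus younger, two-sided, and genes were called under 0.05 after Benjamini-Hochberg adjustment across the whole table. Adjusted p-values are limma's. The fit was tested on simulated data with independent noise for each probe set, which checks the code and not its behaviour for genes that move together.

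The members and the gene lists were chosen with earlier results of these data known. The genes named were every called member, the 4 of smallest p per direction and comparison, and the brightest and most variable member of each role class; genes said to be added after their values were seen fall outside this rule. Replicate numbers shared by titles were looked at as pairs. Deviations from group means correlated at 0.068, 0.043 and -0.096 for adult and fetal arrays and at 0.116, 0.0077, 0.041 and 0.275 for infant and fetal arrays. For adult and infant arrays they correlated at 0.145, 0.131 and 0.204. Arrays of unlike numbers were not compared in this way, so these values cannot decide whether the numbers mark pairs. Alternatives were a level filter, an intensity trend, array weights, quantile normalisation, other probe set rules, gestation day 120 alone as fetal, a replicate block and leaving out each array.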

Additional observations from a re-analysis of the deposited data

Results flagged for a closer look

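On a test of the gap between the lowest or highest array and its nearest neighbour within a group of 4, the newborn array fetal 4 lay apart from the other fetal-titled arrays for CCNA2 (6.98), CDC20 (8.12) and PTTG1 (9.24), and for the mean deviation of the 42 genes (-0.20). The highest MAD2L1 value of that group, 6.97 on fetal 3, and the lowest infant value of MKI67, 7.79 on infant 4, lay apart as well; for MKI67 the other 3 infant arrays hold the same value. Over all 42 genes and both groups of 4, 9 of 84 tests met the limit (10.7%), close to the 9.73% over all 11963 genes; the limit is set for about 1 in 20. Of the 9, 5 were low values on fetal 4 (11.9% of the members, against 1.38% of all genes), and these 5 genes share that array and move together, so they are not separate events.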

How the results depend on the processing

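The called count between adult and fetal-titled cultures, 1, became 7 with the replicate number as a block (CDC25B, CCNB2, CDC20, CDK1, KIF20A, PTTG1 and UBE2C, all lower). These numbers are not known to mark pairs. The count lay between 0 and 4 when 1 array was left out. Between infant and fetal-titled cultures it lay between 0 and 1 without 1 array. The F test's count of 0 became 1 with array weights (CDC25B), 2 with the replicate block (CDK1 and PTTG1) and between 0 and 1 without 1 array. The block changed no call between adult and infant cultures. Shares of all probe sets called under these alternatives are not given here, so these counts cannot be read as particular to the members. CDC25B was called under all 8 other settings and in 5 of 11 omissions. For the named genes, 743 of 765 alternative values over 42 comparisons kept direction and side of the threshold, 6 lost a call, 6 gained one and 10 changed sign, none of them called. With the median of a gene's probe sets the sign turned for CDC25A (adult minus fetal-titled -0.15, infant minus fetal-titled -0.089, newborn minus gestation day 120 -0.11), AURKA (0.0035) and CENPF (0.0036) in adult minus fetal-titled, TOP2A (-0.0075) in adult minus infant and MKI67 (-0.050) in newborn minus gestation day 120. Quantile normalisation turned BUB3 (0.025) in adult minus fetal-titled, and newborn minus gestation day 120 of CENPE lay at -0.077 without fetal 3, -0.013 without fetal 2 and up to 0.27 without other arrays. The causes were not tested. The promoter search planned for these genes was not run. The 11 arrays limit precision, and dim probe sets cannot be told from background here.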
